A study of Mus musculus with 51 samples.

Results

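The transcripts described here are 10 genes of the NRF2 antioxidant system: Slc7a11, Gclc and Gclm, which bring in cystine and build glutathione, Gsr, Txnrd1, Srxn1 and Nqo1, which return oxidised molecules to their reduced state, Hmox1, which breaks down heme, and the regulators Nfe2l2 and Keap1. They were taken from a list of names, and each name matched 1 Ensembl identifier among the 53801 genes of the count table. All 10 were well enough counted to pass the filter on low counts that kept 17015 genes. They were followed in a mouse mesenchymal line that can become fat, C3H/10T1/2-SAM. These cells carry dCas9-VP64 and MS2-P65-HSF1, the parts of a system that raises transcription of a gene to which a guide RNA points. In 51 RNA libraries, cells had received guides for Pparg and Ybx1 (PY), the guide for Pparg (P) or the empty vector (EV), 250 ng of plasmid in each case. Transfection was done 48 hours before day 0, and every culture, EV included, had 5 µM rosiglitazone, which binds and activates PPARG, from day 0. RNA of days 0, 2 and 4 gave 6, 5 and 6 libraries of PY, 5, 6 and 6 of P and 5, 6 and 6 of EV, drawn from 6 experiments. No library of days 2 or 4 lacked rosiglitazone, so the drug, time in culture and time since transfection cannot be told apart in any comparison of days. The cells are 1 engineered line, and what is named P or PY is a transfected culture, not a sorted or cloned one.

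NRF2, the product of Nfe2l2, is a transcription factor that KEAP1 marks for destruction in unstressed cells. Oxidants and electrophiles disable KEAP1, and NRF2 then pairs with small MAF proteins on antioxidant response elements near genes for glutathione synthesis, thioredoxin reduction, quinone reduction and heme breakdown. Much of this control acts on the NRF2 protein, which RNA counts do not measure. Several of the same genes answer to other factors as well: ATF4, a factor of amino acid and endoplasmic reticulum stress, drives Slc7a11, and BACH1 represses Hmox1. In mice NRF2 has been linked to Pparg and to the formation of fat cells.

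Promoter sequences are shown for the members whose window held a match to one of these elements, to show the letters beside values that are described below. RefSeq promoters (GRCm38.p6, 250 bases before to 50 after the start) were found for 7 of the 10 members, with 9 promoters in all, and none was found for Gclc, Gsr and Hmox1. Both strands were searched for the antioxidant response element core TGACNNNGC, which 12.4% of 32851 promoters held, for its TGAG form TGAGTCAGC, held by 0.414%, and for the ATF4 element core TGATGNAA, held by 3.97%. No match overlapped another. Capitals mark the matches, and a match describes letters, not a bound site.
Slc7a11, chr3:50443564-50443863, minus strand: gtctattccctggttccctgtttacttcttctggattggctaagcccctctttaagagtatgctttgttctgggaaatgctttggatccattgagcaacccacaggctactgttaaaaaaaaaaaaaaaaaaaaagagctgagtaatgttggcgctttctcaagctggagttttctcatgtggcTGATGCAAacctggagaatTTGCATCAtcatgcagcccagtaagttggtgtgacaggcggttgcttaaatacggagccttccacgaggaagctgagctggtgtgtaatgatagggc
Gclm, chr3:122245307-122245606, plus strand: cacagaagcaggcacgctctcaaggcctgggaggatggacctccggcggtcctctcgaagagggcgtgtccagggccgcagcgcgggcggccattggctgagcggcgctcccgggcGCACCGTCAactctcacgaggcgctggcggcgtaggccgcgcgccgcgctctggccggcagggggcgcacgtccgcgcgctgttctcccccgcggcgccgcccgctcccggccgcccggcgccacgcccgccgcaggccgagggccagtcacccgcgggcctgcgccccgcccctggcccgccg
Txnrd1, chr10:82858956-82859255, plus strand: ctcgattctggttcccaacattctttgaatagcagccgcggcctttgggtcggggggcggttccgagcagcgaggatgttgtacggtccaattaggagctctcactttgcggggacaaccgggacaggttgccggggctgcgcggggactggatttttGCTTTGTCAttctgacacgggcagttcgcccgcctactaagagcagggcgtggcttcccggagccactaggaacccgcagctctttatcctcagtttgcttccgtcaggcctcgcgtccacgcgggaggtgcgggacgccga
Srxn1, chr2:152105274-152105573, plus strand: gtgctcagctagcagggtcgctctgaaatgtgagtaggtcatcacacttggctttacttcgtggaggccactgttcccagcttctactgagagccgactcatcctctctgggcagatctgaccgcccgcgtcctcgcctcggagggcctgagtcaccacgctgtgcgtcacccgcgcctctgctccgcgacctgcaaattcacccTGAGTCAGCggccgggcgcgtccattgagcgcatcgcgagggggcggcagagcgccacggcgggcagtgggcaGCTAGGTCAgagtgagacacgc
Nfe2l2, chr2:75704614-75704913, minus strand: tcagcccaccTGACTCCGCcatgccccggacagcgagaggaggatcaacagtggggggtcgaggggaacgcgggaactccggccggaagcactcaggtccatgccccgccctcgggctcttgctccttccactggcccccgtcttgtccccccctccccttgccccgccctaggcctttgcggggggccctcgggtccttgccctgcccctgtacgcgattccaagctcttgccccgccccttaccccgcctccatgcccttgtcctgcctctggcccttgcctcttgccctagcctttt
Slc7a11 held a pair of ATF4 cores, starting at -66 on the plus strand of the gene and at -47 on the opposite strand, and no antioxidant element core. Srxn1 held TGAGTCAGC at -45 and a core at 29 on the opposite strand. The second of the Txnrd1 promoters held a core at -92 and Gclm held one at -134, both on the opposite strand, and Nfe2l2 held one at -240. The windows of Nqo1 and Keap1 held none of these letters.

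Library totals ran from 3381870 to 114566739 counts, with a median of 22366559. CPM are counts per 1000000 counts of the library after scaling. At day 4 Pparg ran from 178 to 412 CPM in PY and from 202 to 370.3 CPM in P, against 41.8 to 76.6 CPM in EV, and Ybx1 from 1364 to 2428 CPM in PY, against 461 to 664 CPM in P and 415 to 738 CPM in EV. All 7 mesenchymal markers (summed 6441 to 18767 CPM) and all 8 fat cell markers were kept by the filter. The 8 were Fabp4, Adipoq, Plin1, Cidec, Cebpa, Lipe, Lpl and Pparg, so their sum includes the target of the Pparg guide in P and PY. The summed fat cell markers ran from 1551 to 13696 CPM in PY, from 2947 to 11787 CPM in P and from 96.0 to 528 CPM in EV at day 4. Markers of other cell types were low: 6 leukocyte markers summed to at most 10.2 CPM in any library, 5 epithelial to 16.0, 4 endothelial to 49.0 and 4 skeletal muscle to 59.2, and Ptprc, Adgre1, Itgam, Cdh5, Epcam, Myod1, Myog and Ckm were below the filter. In bulk RNA, fewer cells that express a gene and less of its RNA per cell cannot be told apart.

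The genes of cystine import and glutathione synthesis were lower at day 4 than at day 0 in all 3 transfections, the empty vector included, and Slc7a11 fell furthest of the 10. Slc7a11 (ENSMUSG00000027737, chr3:49892526-50443614, minus strand) encodes xCT, the exchanger that imports cystine for glutathione. In PY cells it ran from 5.85 to 26.0 CPM at day 4 (median 10.8), against 34.5 to 117 CPM at day 0 (median 58.1). In P cells it ran from 5.70 to 16.3 CPM at day 4 (median 8.99), against 46.6, 41.8, 71.7, 96.3 and 51.6 CPM at day 0. EV cells had 6.37 to 17.4 CPM at day 4 (median 8.63), against 49.3, 55.2, 50.5, 82.1 and 101 CPM at day 0. No day 4 library reached the lowest day 0 library of its transfection. The fall was 4.97-fold in PY (log2 -2.31 ± 0.41, SE, edgeR adjusted p = 1.66e-05), 6.04-fold in P (-2.59 ± 0.42, adjusted p = 6.73e-06) and 6.42-fold in EV (-2.68 ± 0.42, adjusted p = 9.96e-06). Parts of its annotated exons are at least 90% identical over 300 bases or more to transcripts of 22 other genes. Among them are Tuba1a (93.4% over 483 bases) and Lpl, which had 504306 counts over the 51 libraries. Lpl is one of the fat cell markers whose sum at day 4 was higher in PY and P than in EV. How reads that fit several places were counted is not given in the sources used here, so the level of Slc7a11 is uncertain. Whether reads of Lpl or the other genes entered the Slc7a11 counts was not tested.

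The paired subunits of glutamate-cysteine ligase, which makes the first bond of glutathione, also fell. Gclc (ENSMUSG00000032350, chr9:77754535-77794485, plus strand), the catalytic subunit, was at 53.0 ± 13.9 CPM at day 4 against 130 ± 21.7 at day 0 in PY (SD, n = 6 each). It was at 52.2 ± 15.1 CPM (n = 6) against 133 ± 12.6 (n = 5) in P, and at 57.1 ± 18.0 CPM (n = 6) against 146 ± 18.6 (n = 5) in EV. The folds of 2.44, 2.55 and 2.56 in PY, P and EV lay within their errors of each other (log2 -1.29 ± 0.24, -1.35 ± 0.25 and -1.35 ± 0.25), with adjusted p of 5.08e-05, 5.12e-05 and 9.61e-05 in edgeR. Gclm (ENSMUSG00000028124, chr3:122245557-122270732, plus strand), the modifier subunit, was at 48.9 ± 7.92 CPM at day 4 against 90.1 ± 10.9 at day 0 in PY (n = 6 each). It was at 45.5 ± 8.63 CPM (n = 6) against 92.4 ± 11.9 (n = 5) in P and at 32.6 ± 8.55 CPM (n = 6) against 92.9 ± 14.8 (n = 5) in EV. Its fall was 1.84-fold in PY, 2.03-fold in P and 2.85-fold in EV (adjusted p = 0.000605, 0.000176 and 1.88e-06). Days 4 and 0 did not overlap for either subunit in any transfection. Of the exon bases of Gclm, 296 (4.71%) lie opposite Gm17494, and without the strand setting the reads of the 2 cannot be told apart. Gm17494 had 1334 counts over the 51 libraries. The pseudogene Gm6061, on the same strand, shares 244 (3.88%) of the exon bases of Gclm and had 0 counts. Reads of that stretch cannot be told apart by strand.

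**Figure D1:**
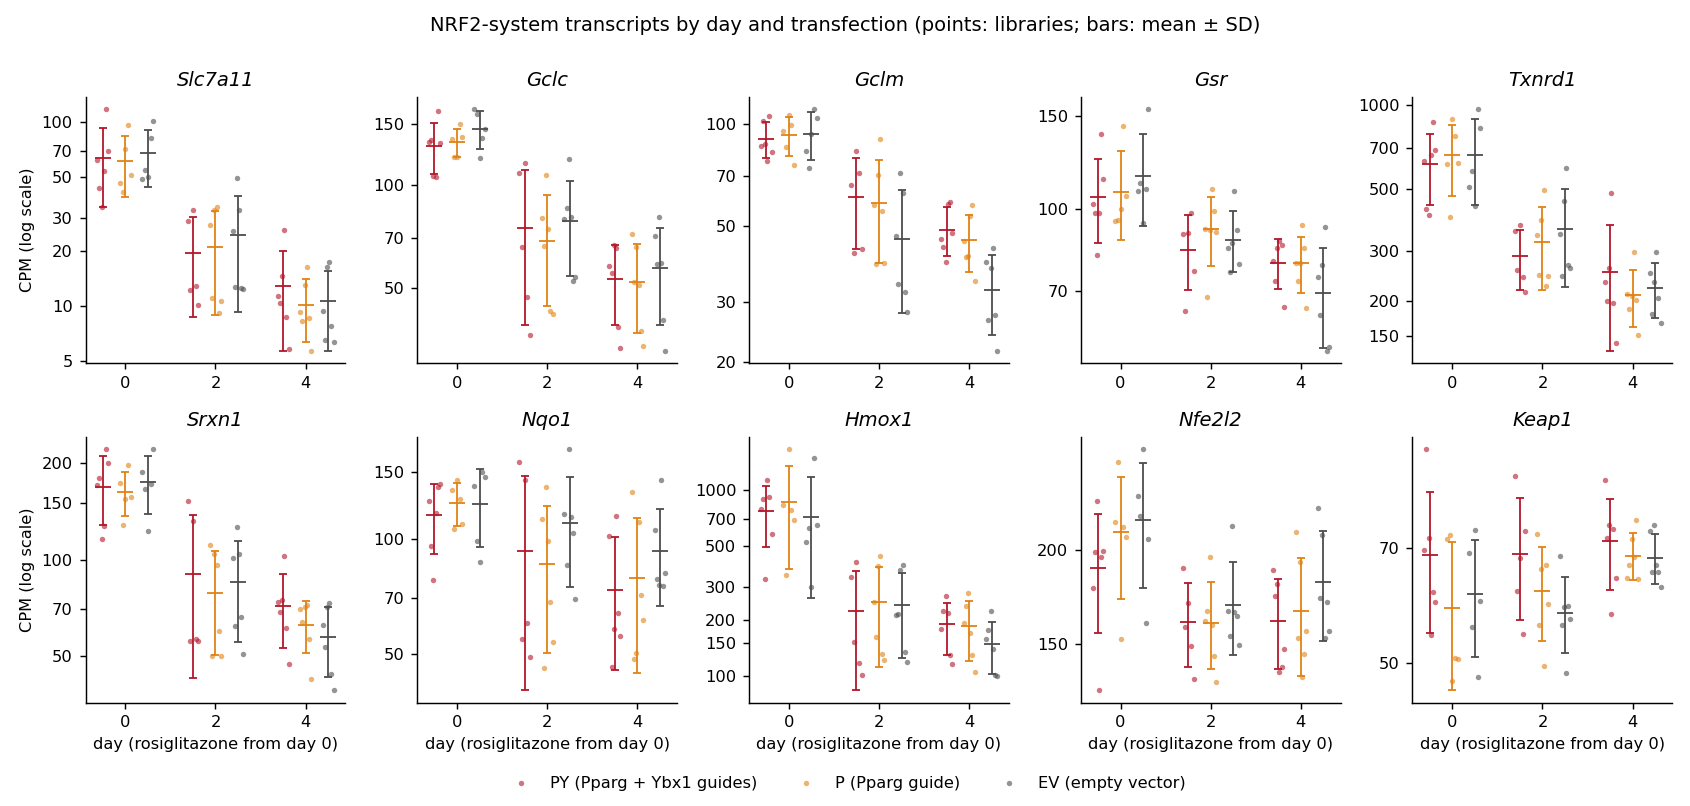
CPM on log axes of the 10 transcripts in each library by day, with PY, P and EV side by side from left to right within a day and bars for mean ± SD. Slc7a11 and Hmox1 show the widest drop between day 0 and day 4 in every transfection, and Keap1 overlaps between the days.

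Among the reductases, Txnrd1 and Srxn1 fell about as far as Gclc, Gsr fell less, and Nqo1 did not pass. Txnrd1 (ENSMUSG00000020250, chr10:82833951-82897712, plus strand), the cytosolic thioredoxin reductase, ran from 142 to 484 CPM at day 4 (median 217) in PY, against 406 to 869 at day 0 (median 647). In P it ran from 152 to 298 CPM (median 205), against 615, 398, 891, 776 and 618, and in EV from 167 to 299 CPM (median 219), against 508, 579, 434, 963 and 826. The 484 CPM of PY day 4 replicate 4 is the only day 4 value inside the day 0 range. The folds were 2.43 lower in PY (log2 -1.28 ± 0.26, adjusted p = 0.000101), 3.14 in P (-1.65 ± 0.27, adjusted p = 5.85e-06) and 2.98 in EV (-1.57 ± 0.27, adjusted p = 2.58e-05). Srxn1 (ENSMUSG00000032802, chr2:152105516-152111376, plus strand), sulfiredoxin, which repairs over-oxidised peroxiredoxins, was at 71.6 ± 18.4 CPM at day 4 against 169 ± 40.9 at day 0 in PY, at 62.7 ± 11.5 against 162 ± 25 in P and at 57.2 ± 14 against 174 ± 35.6 in EV (SD, n = 6 at day 4 and 6, 5 and 5 at day 0). It fell 2.36-fold, 2.58-fold and 3.04-fold in PY, P and EV (adjusted p = 9.69e-05, 4.94e-05 and 1.24e-05), with no overlap of days.

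At a smaller scale, Gsr (ENSMUSG00000031584, chr8:33652523-33698163, plus strand), which regenerates glutathione, was at 79.2 ± 8.57 CPM at day 4 against 106 ± 19.2 at day 0 in PY, at 79.1 ± 9.67 against 108 ± 20.7 in P and at 69.5 ± 15.0 against 116 ± 22.8 in EV. The falls were 1.33-fold (adjusted p = 0.0133), 1.37-fold (adjusted p = 0.0104) and 1.67-fold (adjusted p = 0.000133) in PY, P and EV, and the days overlapped in PY. The call in PY did not pass without PY day 0 replicate 5 (adjusted p = 0.0632), experiment 5 (0.0544) or experiment 6 (0.113), nor with no filter on low counts (0.0625), and that in P did not without P day 0 replicate 4 (0.0810), experiment 5 (0.0613) or experiment 6 (0.0572). Nqo1 (ENSMUSG00000003849, chr8:107388225-107403206, minus strand), the quinone reductase often used as a readout of NRF2, ran from 46.3 to 115 CPM at day 4 (median 61) in PY, against 78.2 to 139.8 at day 0 (median 121). It ran from 48.4 to 133 CPM (median 66.4) in P, against 135, 106, 143, 127 and 109.6, and from 75.4 to 143 CPM (median 80.2) in EV, against 138, 99.2, 87.3, 150 and 146. The days overlapped in every transfection. Each experiment with both days had less at day 4 than at day 0, and how many other genes ran so was not counted. Its log2 changes of -0.65 ± 0.28 in PY, -0.65 ± 0.30 in P and -0.41 ± 0.30 in EV had adjusted p of 0.0648, 0.0787 and 0.305. With the experiment as a block they were 0.00357, 0.0191 and 0.190, so that PY and P passed and EV did not. Without the block, Nqo1 also passed in PY without PY day 0 replicate 3 (adjusted p = 0.0486), PY day 4 replicate 1 (0.0455), PY day 4 replicate 4 (0.0182) or experiment 4 (0.0276) and in a fit of the compared groups alone (0.0383), and in P without P day 4 replicate 1 (0.0234), P day 4 replicate 4 (0.0390) or experiment 1 (0.0413).

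Hmox1 (ENSMUSG00000005413, chr8:75093621-75100589, plus strand), heme oxygenase 1, fell next furthest after Slc7a11. PY cells had 116 to 269.7 CPM at day 4 (median 198), against 334 to 1136 at day 0 (median 842). P cells had 104 to 280.4 CPM (median 182), against 830.1, 351, 1677, 779 and 696, and EV cells 99.7 to 222 CPM (median 148), against 529, 624, 302, 1503 and 652. Again no day 4 library reached the day 0 range of its transfection. The falls of 4.11-fold in PY (log2 -2.04 ± 0.40, adjusted p = 8.18e-05), 4.67-fold in P (-2.22 ± 0.41, adjusted p = 4.79e-05) and 4.84-fold in EV (-2.28 ± 0.41, adjusted p = 7.02e-05) were not shown to differ: the change of P against EV between days 0 and 4 was log2 0.05 ± 0.57 (edgeR adjusted p = 1), and that of PY against P 0.18 ± 0.56 (1).

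The regulators moved little. Nfe2l2 (ENSMUSG00000015839, chr2:75675513-75704641, minus strand), which encodes NRF2, was at 161 ± 21.9 CPM at day 4 against 189 ± 33.6 at day 0 in PY, at 166 ± 29.5 against 211 ± 38.7 in P and at 182 ± 30.1 against 219 ± 41.0 in EV, and the days overlapped in all 3. The log2 changes were -0.23 ± 0.13, -0.35 ± 0.14 and -0.27 ± 0.14, with adjusted p of 0.185, 0.0477 and 0.141, and 0.0225, 0.00113 and 0.0229 with the experiment block. In EV it also passed without experiment 4 (adjusted p = 0.0487). The unblocked call in P rests on the full set of libraries. It did not pass without replicate 1, 2, 4 or 5 of P day 0, without replicate 2, 4, 5 or 6 of P day 4 or without experiment 2, 3, 5 or 6 (adjusted p up to 0.199), nor in DESeq2 (0.0602), with RLE scaling (0.0649), with no filter (0.0679) or in the 2 groups alone (0.109). Keap1 (ENSMUSG00000003308, chr9:21229730-21239361, minus strand), the NRF2 repressor, was at 71.3 ± 9.46 CPM at day 4 against 68.5 ± 13.9 at day 0 in PY, at 68.4 ± 4.68 against 58.7 ± 12.5 in P and at 68.0 ± 4.96 against 61.3 ± 10.3 in EV. Its log2 changes of 0.06 ± 0.12, 0.22 ± 0.13 and 0.15 ± 0.13 did not pass (adjusted p = 0.747, 0.178 and 0.403), and that in P did with the block (0.0343). Gm16754 lies opposite 510 (10.9%) of its exon bases.

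In all, 7 of the 10 passed as lower at day 4 than at day 0 in PY, where 17.8% of all genes tested did, 8 in P, where 18.5% did, and 7 in EV, where 14.9% did. None passed as higher, as 19.7%, 18.7% and 15.1% of all genes did. The 7 shared by all 3 were Slc7a11, Gclc, Gclm, Gsr, Txnrd1, Srxn1 and Hmox1, and P added Nfe2l2. The median log2 change of the 10 was -1.06 in PY, -1.19 in P and -1.43 in EV, beside -0.01, -0.00 and 0.02 over all genes tested. Slc7a11, Gclc, Gclm, Txnrd1, Srxn1 and Hmox1 passed in each transfection in every setting and without every single library and experiment that was tried. With the block 9 were lower in PY, where 26.0% of genes were, 9 lower and 1 higher in P, where 26.1% and 25.3% were, and 8 lower in EV, where 22.4% were. The cells also differed in fat cell markers: at day 4 the summed fat cell markers were 1551 to 13696 CPM in PY against 186 to 851 at day 0, and 96.0 to 528 CPM in EV against 60.7 to 90.8, and their part in these changes was not tested.

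**Figure D2:**
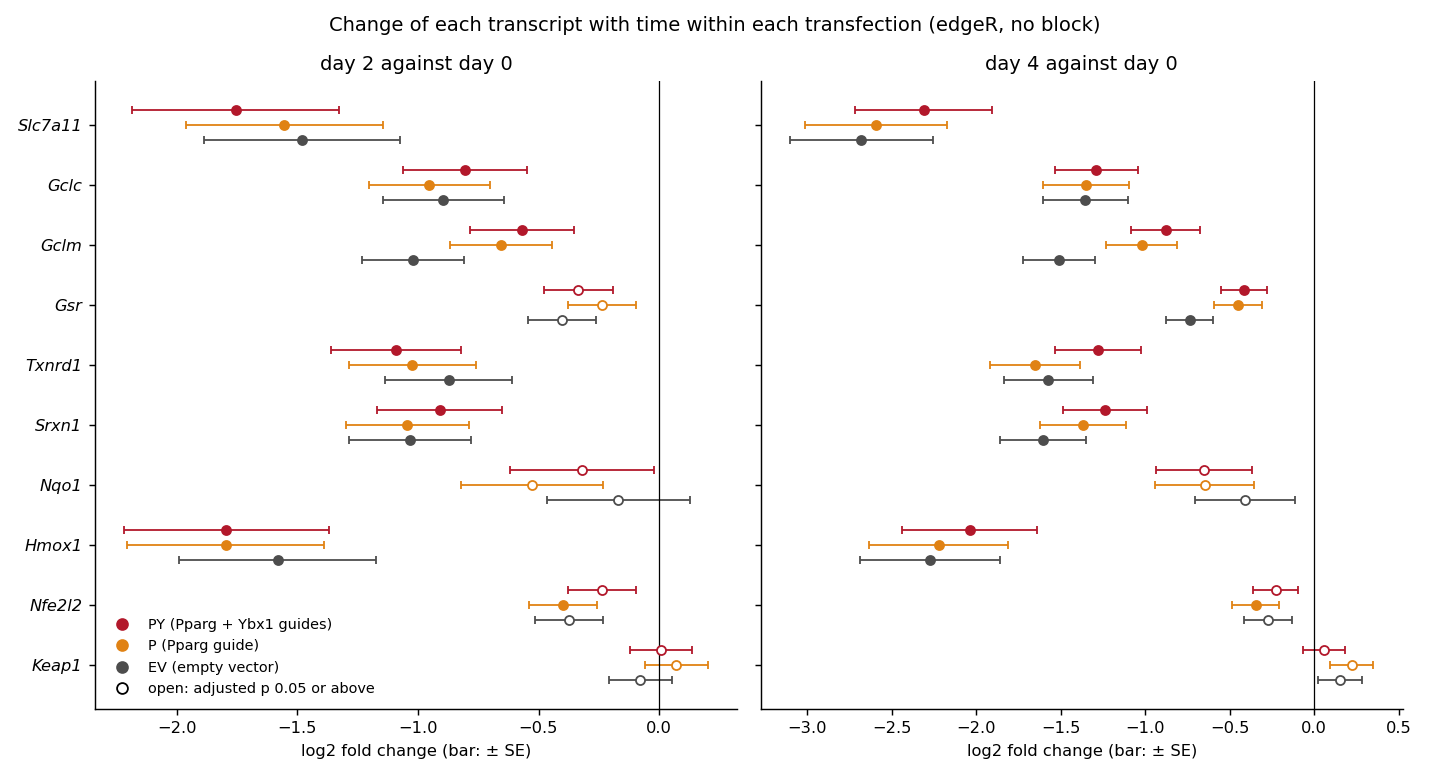
log2 fold change of each transcript at day 2 and at day 4 against day 0 in PY, P and EV, top to bottom within each gene, with SE bars and filled points where the adjusted p was under 0.05. At day 4 Slc7a11 lies between -2.31 and -2.68 and Hmox1 between -2.04 and -2.28, with the 3 transfections within their errors.

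Most of the fall was present at day 2. At day 2 against day 0, 6 members were lower in PY, where 11.3% of genes were, 7 in P, where 7.0% were, and 6 in EV, where 4.43% were, with 0 higher beside 11.4%, 7.01% and 2.89% of all genes. Slc7a11, Gclc, Gclm, Txnrd1, Srxn1 and Hmox1 passed in all 3, and Nfe2l2 in P. The median log2 change of the 10 was -0.69 in PY, -0.80 in P and -0.88 in EV. Hmox1 was 3.47-fold lower in PY and in P and 2.99-fold lower in EV (log2 -1.79 ± 0.42, -1.80 ± 0.41 and -1.58 ± 0.41, adjusted p = 0.00170, 0.00202 and 0.0125), and Slc7a11 3.38-fold, 2.94-fold and 2.79-fold lower (adjusted p = 0.00247, 0.00713 and 0.0186). With the experiment block 8 were lower in PY, where 18.2% of genes were, 7 in P, where 14.6% were, and 8 in EV, where 11.7% were. The block added Gsr (adjusted p = 0.0313 in PY and 0.0146 in EV) and Nfe2l2 (0.0119 in PY and 0.00480 in EV), which without it had 0.0833 and 0.239 in PY and 0.0693 and 0.0926 in EV. The unblocked counts depend on single experiments. The count in PY was 3 without experiment 2, 5 or 6, that in P was 1 without experiment 5, and that in EV was 3 without EV day 2 replicate 5, 2 without experiment 1, 1 without experiment 2 or 5 and 3 with no filter on low counts. The calls that held in every setting and leave-out tried were Slc7a11, Txnrd1 and Hmox1 in PY, Hmox1 in P and Gclm in EV. Between day 4 and day 2 no member passed in edgeR in PY, P or EV, where 0.0%, 1.29% and 0.0353% of genes did, nor in DESeq2. At an unadjusted p under 0.05 in edgeR there were 0, 2 and 5 members, beside 1189, 3080 and 3077 of the 17015 genes tested. With the experiment block 0 passed in PY, where 5.68% of genes did in either direction, Slc7a11 and Txnrd1 were lower in P, where 10.1% of genes were, and Slc7a11, Gclm, Txnrd1 and Gsr were lower in EV, where 9.7% were.

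The experiments differed at day 2, where Slc7a11 in experiments 1 and 3 was at 29.2 and 33.3 CPM in PY. Experiments 1, 3 and 4 had 27.7, 33.3 and 34.4 CPM in P, and 25.6, 49.7 and 33.5 CPM in EV. Experiments 2, 5 and 6 had 12.2, 12.8 and 10.1 CPM in PY, 11, 9.15 and 10.6 in P and 12.7, 12.5 and 12.4 in EV. The same experiments were apart in each transfection, with no value between 12.8 and 25.6 CPM. Srxn1 split alike at day 2. For experiments 1, 3 and 4 it had 152 and 132 CPM in PY (no library of experiment 4), 111, 104 and 96.0 CPM in P and 101, 126 and 104 CPM in EV. For experiments 2, 5 and 6 it had 55.9, 56.6 and 55.6 CPM in PY, 50.2, 59.8 and 50.2 CPM in P and 62.1, 66.5 and 50.6 CPM in EV, again with no overlap. Experiment 3 stood out for Hmox1: it had the lowest day 0 level in every transfection (334, 351 and 302 CPM in PY, P and EV) and a higher one at day 2 (409, 392 and 371 CPM). Experiment 4 had the highest, at 1136, 1677 and 1503 CPM at day 0 in PY, P and EV. Nqo1 at day 4 was highest in experiments 1 and 4 of every transfection (102 and 115 CPM in PY, 133 and 111 in P, 106 and 143 in EV), and was at 46.3 to 64.0, 48.4 to 71.5 and 75.4 to 81.6 CPM in the other experiments. The experiments were singled out after their values were seen, the labels give only their numbers, and no test was made of them.

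**Figure D3:**
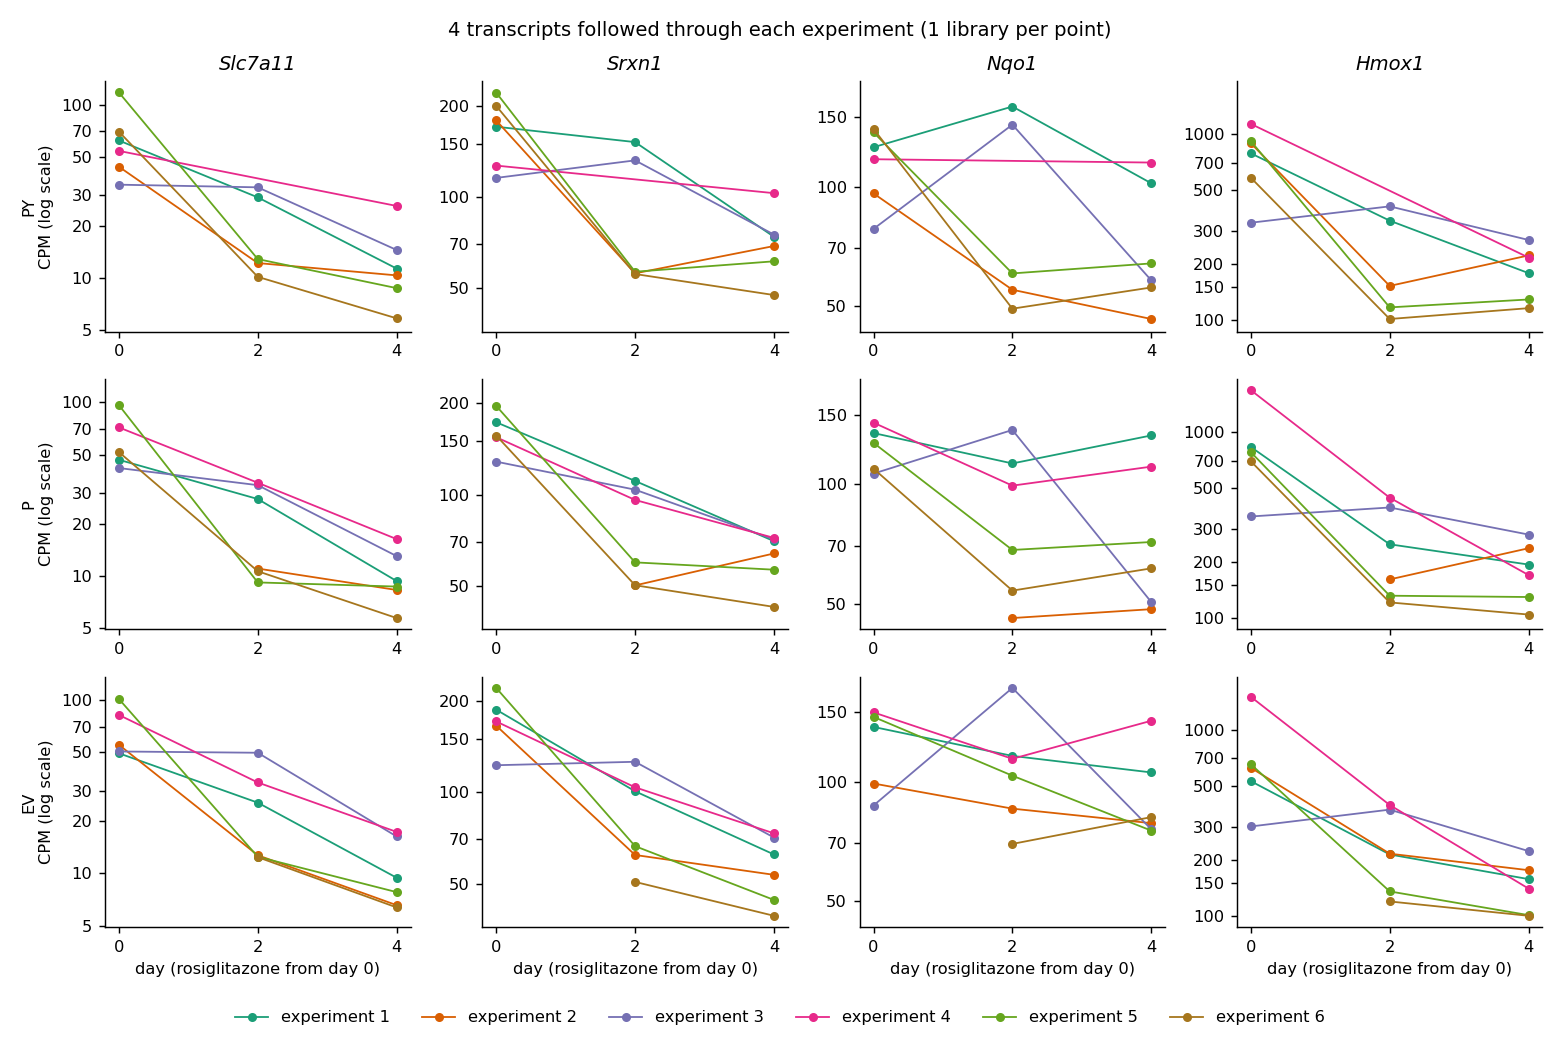
CPM on log axes of Slc7a11, Srxn1, Nqo1 and Hmox1 by day in PY, P and EV (rows), with 1 line per experiment; PY has no day 2 library of experiment 4, so that line joins days 0 and 4. At day 2 Slc7a11 lies at 25.6 CPM or above in experiments 1, 3 and 4 and at 12.8 CPM or below in experiments 2, 5 and 6.

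Between transfections of the same day, no member passed edgeR's test without the block in PY against EV, where 0.047%, 4.74% and 7.83% of genes did on days 0, 2 and 4, or in P against EV, where 0.00588%, 2.83% and 5.37% did. None passed in PY against P either, where 0.0294%, 0.0118% and 0.0176% did. At an unadjusted p under 0.05 there was 1 member in PY against EV at day 4 and 1 in P against EV at day 4, Gclm both times, and 0 in the other 7 comparisons. Of the 17015 genes tested, 2896 in PY against EV and 2174 in P against EV at day 4 had such a p. The other 7 comparisons had 106 to 2609. DESeq2 passed Gclm in PY against EV at day 4 and no other member in any of the 9. Over the 10 members the 95% intervals of the fold at day 4 reached from 0.536 to 2.14 in PY against EV. They reached from 0.564 to 2.10 in P against EV and from 0.603 to 2.15 in PY against P. In PY against EV these ends belong to Nqo1 and Hmox1, and the SE of the members ran from log2 0.123 to 0.395. The size of change that cannot be told from none therefore differs between members. A count of 0 among 10 members is near what these shares of all genes give, and nothing particular to the members is read from it. No change of P against EV or of PY against P between day 0 and a later day passed for any member. This held in edgeR, with or without the block, and in DESeq2. Of all genes, 0.0588% passed at day 2 and 0.306% at day 4 for P against EV, and 0.0% on both days for PY against P. At an unadjusted p under 0.05 in edgeR there were 0 members, beside 544 and 1029 of the 17015 genes for P against EV at days 2 and 4. For PY against P there were 84 and 62 genes.

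Gclm came nearest. At day 4 it ran from 39.4 to 59.0 CPM in PY (median 46.9) and from 34.7 to 57.6 CPM in P (median 43.2), against 21.6 to 43.1 CPM in EV (median 32.6). The ranges overlapped, but in each of the 6 experiments both PY and P were above EV. PY was 1.5-fold higher than EV (95% interval 1.14 to 1.98, log2 0.59 ± 0.20, adjusted p = 0.0672) and P 1.40-fold (1.06 to 1.84, 0.48 ± 0.20, adjusted p = 0.237). With the experiment as a block Gclm passed in both (adjusted p = 0.00281 and 0.0254), as did 10.2% and 7.89% of genes as higher. PY against EV also passed in DESeq2 (0.0355), with RLE scaling (0.0482), and without EV day 4 replicate 1 (0.0491), EV day 4 replicate 4 (0.0276), experiment 3 (0.0289) or experiment 4 (0.0435). At day 2 PY was 1.33-fold and P 1.28-fold above EV (adjusted p = 0.357 and 0.644), in 5 of 5 and 5 of 6 experiments, and PY passed with the block (0.0451), where 6.81% of genes did as higher. PY stood 1.08-fold above P at day 4 (0.819 to 1.42, adjusted p = 1). The fat cell markers that differed between these groups are given above, and their part in the Gclm values was not tested.

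The other 9 members did not pass in any comparison of transfections, with or without the block. Some ran one way over the paired experiments, beside the shares of all genes given with them. At day 0 Nfe2l2, Gsr and Nqo1 were lower in PY than in EV in 5 of 5 (10.2% of all genes one way). Hmox1 was higher and Slc7a11 lower in P than in EV in 4 of 4 (15.8%), and Nfe2l2 lower in PY than in P in 5 of 5 (7.76%). At day 2 Keap1 was higher and Nqo1 lower in P than in EV in 6 of 6 (19.3%). Gclm was higher in PY than in EV in 5 of 5 (19.5%), and Gclm higher and Gsr lower in PY than in P in 5 of 5 (7.84%). At day 4 Srxn1, Gclm and Hmox1 were higher and Nqo1 lower in PY than in EV in 6 of 6 experiments, where 24.7% of all genes tested ran one way in 6 of 6. Gclm, Gsr and Hmox1 were higher in P than in EV in 6 of 6 and no member was lower in 6 of 6, where 24.9% of all genes ran one way. Srxn1 and Slc7a11 were higher in PY than in P in 6 of 6, where 4.48% of all genes ran one way. The remaining members at day 4 were split over the experiments, such as Txnrd1, which was higher in PY than in EV in 3 and lower in 3. Nqo1 in PY was at a fold of 0.788 of EV (95% interval 0.536 to 1.16, adjusted p = 0.625), Hmox1 at 1.27 (0.750 to 2.14, adjusted p = 0.747), and Slc7a11 in PY at 1.26 of P (0.738 to 2.15, adjusted p = 1). The log2 difference of Slc7a11 between PY and P was 0.33 with all libraries, 0.18 without experiment 4 in every group, and -0.01 without PY day 4 replicate 4 alone, which leaves experiment 4 in P. The PY and P comparisons with EV share the EV libraries.

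**Figure D4:**
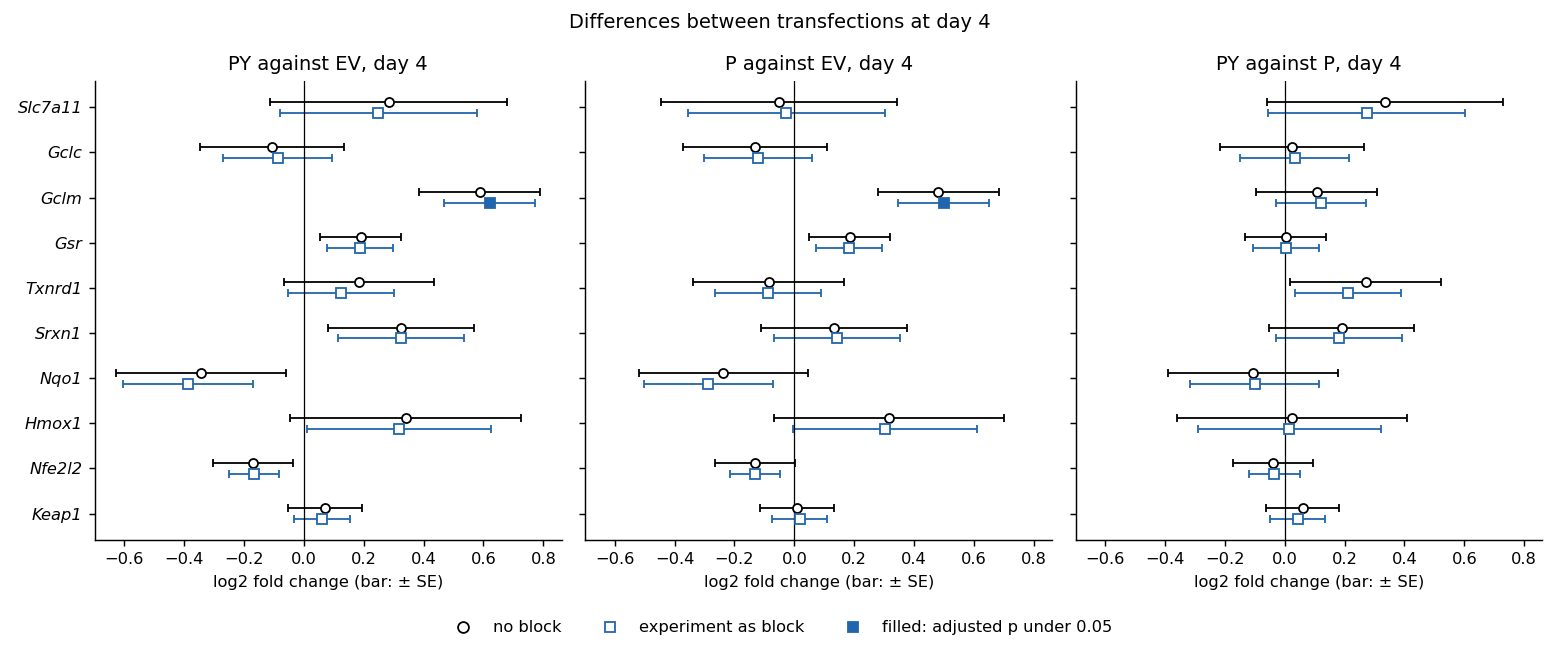
log2 fold change at day 4 of PY against EV, P against EV and PY against P for each transcript, with SE bars, without a block (circles) and with the experiment as a block (squares); filled marks have an adjusted p under 0.05. Gclm is the only filled one, at 0.62 in PY against EV and 0.50 in P against EV.

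The wider antioxidant network was read from 8 lists of 94 other genes, of which 92 were kept; Ddit3 matched 2 identifiers and was left out. Within the NRF2 machinery, 5 of 13 partners, repressors and turnover factors were lower at day 4 than at day 0 in each transfection, where 17.8%, 18.5% and 14.9% of all genes tested were in PY, P and EV, and 1, 0 and 0 were higher. Sqstm1, the autophagy adaptor p62 that ties up KEAP1 and is itself an NRF2 target, was at 685 ± 58.5 CPM at day 4 against 1793 ± 437 at day 0 in PY, at 668 ± 69.3 against 1771 ± 456 in P and at 591 ± 73.0 against 1801 ± 599 in EV, which is 2.62-fold, 2.65-fold and 3.05-fold lower (adjusted p = 9.53e-08, 2.89e-07 and 6.18e-08). The small MAF partners Mafk and Maff were lower too, Mafk 3.42-fold, 3.43-fold and 2.97-fold and Maff 4.36-fold, 5.53-fold and 6.10-fold in PY, P and EV. The Maff value in PY depends on PY day 4 replicate 4: the log2 change was -2.12 with it and -3.13 without it. Of 9 genes of the ATF4 list, 6 were lower and 0 higher at day 4 in every transfection, beside the same shares of all genes (median log2 -1.03, -1.07 and -1.07 in PY, P and EV). Atf3, a stress transcription factor, was 7.86-fold, 11.2-fold and 14.1-fold lower, Trib3, a pseudokinase induced with it, 4.85-fold, 5.51-fold and 4.87-fold, and Chac1, which degrades glutathione, 3.71-fold, 4.05-fold and 4.19-fold. Without PY day 4 replicate 4 the log2 changes in PY were -3.56 in place of -2.98 for Atf3 and -2.52 in place of -1.89 for Chac1, and without EV day 0 replicate 4 that of Atf3 in EV was -3.20 in place of -3.81. The heme transporter Slc48a1 was 1.60-fold, 1.68-fold and 2.12-fold lower.

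Some other antioxidant genes were higher with the Pparg guide than without it. Over the 92 kept genes at day 4 against day 0, 31 were higher and 22 lower in PY, where 19.7% and 17.8% of all genes tested were. In P 25 were higher and 23 lower, beside 18.7% and 18.5%, and in EV 10 higher and 26 lower, beside 15.1% and 14.9%. With the experiment block 40 were higher and 27 lower in PY, 34 and 27 in P and 20 and 32 in EV. Of the 17015 genes tested, 4442 were higher and 4429 lower with it in PY, 4298 and 4438 in P and 3775 and 3807 in EV. Between transfections, 23 were higher in PY than in EV at day 4 and 14 in P than in EV, where 7.03% and 5.18% of all genes tested were. In either comparison 0 were lower, where 136 and 33 of the 17015 genes tested were, so this 0 is near the share of all genes. With the block 25 and 22 were higher, where 10.2% and 7.89% of all genes were. It left 1 lower in each, where 939 and 374 of the 17015 genes were. PY against P at day 4 had 0 in either direction in edgeR, with or without the block, where 0.0176% of all genes passed without it. The summed fat cell markers moved with the same groups at day 4 (1551 to 13696 CPM in PY and 2947 to 11787 CPM in P, against 96.0 to 528 CPM in EV), and their part in the values below was not tested. Catalase, Cat, which removes hydrogen peroxide in peroxisomes, was at 611 ± 252 CPM in PY and 588 ± 246 CPM in P, against 219 ± 39.9 CPM in EV at day 4 (SD, n = 6 each), 2.79-fold and 2.69-fold higher (adjusted p = 1.67e-05 and 5.13e-05). The superoxide dismutases Sod1 and Sod2 were 2.33-fold and 2.13-fold higher in PY and 2.02-fold and 1.98-fold higher in P. Mgst1, a microsomal glutathione transferase, was at 335 ± 155 CPM in PY and 289 ± 136 CPM in P, against 34.2 ± 23.9 CPM in EV, 9.79-fold and 8.47-fold higher (adjusted p = 1.28e-05 and 5.31e-05), and its relative Mgst3 2.87-fold and 2.84-fold. Mgst3 was higher with time in EV too, at 76.0 ± 15.7 CPM at day 2 (n = 6) against 22.3 ± 6.14 CPM at day 0 (n = 5), 3.42-fold (edgeR adjusted p = 0.000198). Prdx3, the mitochondrial peroxiredoxin, was 2.03-fold and 2.04-fold higher. Of the 7 genes listed for NADPH supply and the pentose phosphate path, 6 were higher in PY and 4 in P. Among them were Me1, malic enzyme (2.73-fold and 2.34-fold), and Taldo1, transaldolase of the pentose phosphate path (2.43-fold and 2.17-fold). Cat was also higher at day 4 than at day 0 within these cells, 3.44-fold in PY and 2.97-fold in P. In the main edgeR fit, without the block, none of the 10 members passed in PY or P against EV at day 4. Of all genes, 7.83% and 5.37% did, and a count of 0 among 10 is near these shares. Gclm passed in PY against EV in DESeq2 and with RLE scaling, as given above.

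**Figure D5:**
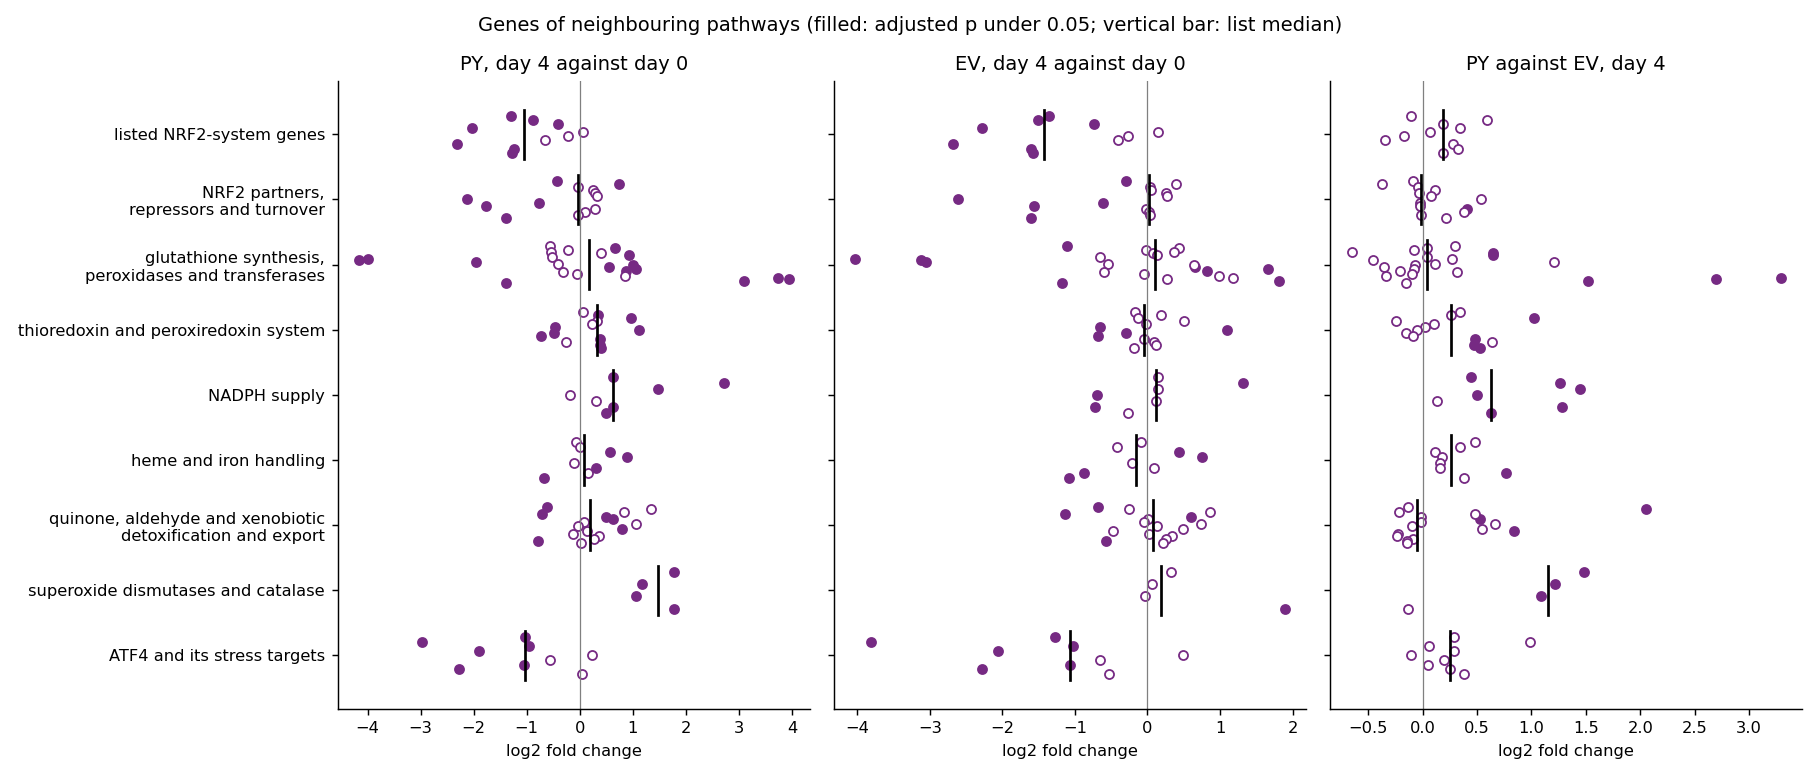
log2 fold change of every kept gene of each list, for PY at day 4 against day 0, EV at day 4 against day 0 and PY against EV at day 4, with filled points for an adjusted p under 0.05 and a bar at the list median. The 10 members and the ATF4 list lie mostly below 0 with time in both transfections, and the superoxide dismutase and catalase list lies at a median of 1.15 in PY against EV.

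Levels were compared between genes per kilobase of annotated exon. At day 0 Hmox1 was the highest, at 443 ± 161 CPM per kilobase in PY, 495 ± 280 in P and 412 ± 261 in EV, with no library below the highest of Txnrd1 (86.6 ± 24.6, 93.1 ± 26.3 and 93.4 ± 31.6). Nqo1, Srxn1, Nfe2l2, Gsr and Gclc followed in that order in all 3 transfections, each overlapping the next, and Gclm and Keap1 lay lower, between 12.5 and 14.8 CPM per kilobase on average. Slc7a11 was the lowest, at 4.57 ± 2.10, 4.42 ± 1.61 and 4.86 ± 1.66, over an annotated exon length of 13922 bases. By day 4 Hmox1 was still first but overlapped Nqo1, and Nfe2l2 had moved from the fifth place to the third. Over the 9 group means the patterns of the members were also set against 10605 genes with a mean of at least 5 CPM, as a description. Txnrd1 was the one whose 3 nearest genes included another member, Slc7a11 (Pearson r = 0.997), with Eif3g and Rrp15. Those nearest to Slc7a11 were Btaf1, Ube2j1 and Krr1 (r = 0.998 to 0.999), and those nearest to Hmox1 were Ythdf2, Tmem251 and Aars (0.995 to 0.997). Gclc lay nearest to Zfp280d, Nufip1 and Rpf1, Gclm to Tmem11, Wapl and Spryd4, Gsr to Memo1, Smurf1 and Urm1, Srxn1 to Lrrfip2, Atp6v1h and Otud3, and Nqo1 to Ppfia1, Mgat2 and Fam118b. Nfe2l2 lay nearest to Snx18, Rnd3 and Osmr (0.969 to 0.983) and Keap1 to Pgap2, Clec2d and Kbtbd7 (0.899 to 0.938). The 9 means share libraries' experiments and a strong effect of day, so many genes reach such values.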

How the data were processed

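RNA of 51 libraries was measured by stranded total RNA sequencing after removal of ribosomal RNA, per the labels' protocols. The authors deposited raw read counts per Ensembl gene. Per the submitters' processing notes the tools were STAR 2.5.3a, featureCounts 1.5.2 and edgeR 3.22.0 on mm10 (GRCm38); annotation release, strand setting and treatment of multi-mapping reads are not given in the sources used here. Symbols, exon lengths and overlaps came from GENCODE M21 and promoters from RefSeq (GRCm38.p6).

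From the counts, filterByExpr kept 17015 genes, TMM set the library scaling, and a quasi-likelihood fit over 9 group means without a block gave all 22 comparisons. Versions were 4.0.16 for edgeR, 3.58.1 for limma and 4.3.3 for R. Tests were two-sided, with Benjamini-Hochberg adjustment over the 17015 genes and a threshold of 0.05. CPM use TMM-scaled library sizes. SE come from the F statistic, and 95% intervals are approximate. The fit was tested on simulated data with known changes. Alternatives were the experiment as a replicate block, RLE scaling, no filter, the compared groups alone, DESeq2 1.42.0, and leaving out each library or experiment.

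The labels number 6 experiments shared across groups. After removal of group means, libraries of the same experiment correlated with a median r of 0.342 (192 pairs, 178 over 0.1), against -0.0806 over 963 other pairs. Blocked values therefore stand beside results of the members whose call they change and beside the totals of the other lists. Counts and values of single lists are given without the block. The block lowered the biological coefficient of variation to 0.202, against 0.325 without it. Within a group no experiment gave more than 1 library, and p-values measure the spread between them. Totals of 3381870 to 114566739 counts set the precision; the lowest count of any member was 63 (Slc7a11).

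All 10 members were tested in every comparison. Each has its own values for day 4 against day 0, and only some are named in the other comparisons. Of the other lists, up to 3 genes with the largest change among those that passed were eligible for each comparison. For each member the 3 genes with the highest Pearson r over group means are named. The members and lists were chosen with earlier results of these data known. The motif TGAGTCAGC, the Gclm to Gclc ratio and the shares of genes running one way over the experiments were added after the data were seen.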

Additional observations from a re-analysis of the deposited data

Results flagged for a closer look

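In each of the 90 combinations of member and group, the library at either end was set against the spread of its group, and 3 stood apart at the 95% level of Dixon's test, which flags about 1 group in 20 by chance. Gsr was at 144 CPM in P day 0 replicate 4, of experiment 5, and at 94.9 to 106 CPM in the other 4 libraries of that group. The call of Gsr between days 4 and 0 in P was lost without this library. Txnrd1 was at 484 CPM in PY day 4 replicate 4, of experiment 4, and at 142 to 261 CPM in the other 5; without it the log2 change between days 4 and 0 in PY was -1.58 in place of -1.28. Nfe2l2 was at 215 CPM in EV day 2 replicate 3, of experiment 3, and at 150 to 166 CPM in the other 5. No change of a difference between days passed for any member, and whether these 3 libraries differ for technical or other reasons was not tested.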

How the results depend on the processing

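Slc7a11, Gclc, Gclm, Txnrd1, Srxn1 and Hmox1 kept their calls and direction at day 4 against day 0 in each transfection under the block, RLE scaling, no filter, the compared groups alone, DESeq2 and every leave-out. With the experiment as a replicate block the count of members passing was 1 in P against EV at day 4, 1 in PY against EV at days 2 and 4, 4 in EV and 2 in P between days 4 and 2, each in place of 0. In PY against EV at day 4 it was 1 also in DESeq2 and with RLE scaling, and 0 to 1 over the leave-outs. With no filter it was 3 in EV between days 2 and 0 in place of 6. Over the leave-outs the counts between days 2 and 0 ran from 3 to 6 in PY, from 1 to 7 in P and from 1 to 7 in EV; the cause was not tested, beyond the fewer samples. Values near 0 changed sign: Keap1 in PY between days 2 and 0 was log2 -0.0346 with the block in place of 0.01 and -0.0974 to 0.16 over the leave-outs, Keap1 in P between these days -0.00185 to 0.16, Keap1 in PY between days 4 and 0 -0.0101 to 0.17, and Slc7a11 in PY against P at day 4 -0.0148 to 0.53. The log2 difference of the Gclm to Gclc ratio at day 0, set out below, ran over -0.0413 to 0.17 in P against EV and over -0.0618 to 0.0547 in PY against P. At a lowest member count of 63 depth limits Slc7a11 most. Left-out libraries leave 4 or 5 per group.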

Other observations

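The paired subunits of glutamate-cysteine ligase can be set against each other within a library, where library scaling cancels. This ratio was chosen after the values were seen. The ratio of Gclm to Gclc counts had a median of 0.838 in PY (0.589 to 1.52) and 0.902 in P (0.620 to 1.53), against 0.605 in EV (0.453 to 0.727) at day 4. Paired by experiment it was 1.62-fold higher in PY and 1.54-fold higher in P than in EV, in 6 of 6 experiments each. The two-sided exact permutation test by sign changes gave p = 0.03125, the smallest that 6 pairs allow (adjusted over 9 comparisons, p = 0.0938). With 4 to 6 pairs in each comparison, no adjusted p over the 9 could fall under 0.05 whatever the values. The adjusted p-values here therefore decide nothing. At day 2 it was 1.62-fold higher in PY in 5 of 5 experiments (exact permutation p = 0.0625, the smallest 5 pairs allow; adjusted p = 0.141) and 1.51-fold higher in P in 6 of 6 (exact permutation p = 0.03125, adjusted p = 0.0938). At day 0 it was 1.13-fold higher in PY in 3 of 5 experiments and 1.07-fold higher in P in 2 of 4 (exact permutation p = 0.438 and 0.750, adjusted p = 0.562 and 0.844). PY against P gave 0.995, 1.08 and 1.06 on days 0, 2 and 4 (exact permutation p = 1, 0.312 and 0.438, adjusted p = 1, 0.562 and 0.562).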
